A study of Homo sapiens with 8 samples.

Results

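The cell makes cholesterol from acetyl-CoA in a long chain of enzymes, and 36 genes of that chain, of the linked fatty acid pathway and of their control were followed here in crowded and in ETV4-depleted human embryonic stem cells. They comprise 7 genes of the mevalonate steps, 12 of the squalene and sterol steps, 7 of fatty acid synthesis, 6 of SREBP control and sterol transport, the oxysterol enzyme gene CH25H and 3 genes regulated by the liver X receptors (LXR). They were chosen by gene symbol, out of 19472 genes in the table of the crowding experiment and 19551 in that of the knockdown experiment, and all 36 were present and tested in both. The list was drawn up with results of these libraries known. The rule for it names genes by pathway and states no measured value, but CH25H, set apart in it, was known by then as one of the largest rises after ETV4 KD. Its values after KD are therefore given without a test, and the counts over the list are descriptions.

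Poly-A RNA of H9 cells, an established human embryonic stem cell line grown on Matrigel in a feeder-free stem cell medium, was sequenced in 8 libraries, 2 per group. In the crowding experiment, cells labelled small were compared with cells labelled crowded, whose adhesive area had been limited so that they grew at high density. In the other experiment, cells of the genotype Ctrl, with a control hairpin, were compared with ETV4 KD cells, which carried a hairpin against ETV4, an ETS-family transcription factor downstream of FGF and ERK signalling. Which hairpin was used, and whether replicates were separate cultures, is not given in the sources used here, so the p-values measure only the spread between these libraries, which may be technical. In bulk RNA, fewer cells of a type and less RNA per cell cannot be told apart.

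Cholesterol synthesis starts with acetyl-CoA units that are joined and reduced to mevalonate, which is phosphorylated and decarboxylated to isoprenoids, joined to squalene, closed into lanosterol and trimmed to cholesterol. The transcription factors SREBP-1 and SREBP-2, made from SREBF1 and SREBF2, switch on these enzymes and those of fatty acid synthesis when sterols are scarce. They are escorted from the endoplasmic reticulum by SCAP and held back there by INSIG1 and INSIG2. They act on promoters together with the general factors NF-Y and SP1. CH25H adds a hydroxyl group to cholesterol, and the product, 25-hydroxycholesterol, binds INSIG proteins to keep SREBPs inactive and activates LXR, whose targets include the sterol exporters ABCA1 and ABCG1 and the ubiquitin ligase MYLIP.

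The libraries held between 50359703 and 62410168 counts on genes. The labels and the cell type were checked first. ETV4 was at 90.8 and 95.1 FPKM (fragments per kilobase of transcript, scaled to the mapped fragments of the library, a level per length) in the Ctrl libraries and at 45.6 and 40.9 in the ETV4 KD libraries, a log2 fold change of -1.15 with an SE of 0.073 (edgeR adjusted p = 1.60e-04). In the crowding experiment it was at 73.2 and 72.6 FPKM in the small and at 54.2 and 53.9 FPKM in the crowded libraries. All 10 pluripotency markers examined were present, with POU5F1 between 1016 and 1405 FPKM. No pluripotency marker was called on crowding by edgeR, DESeq2 or limma. By edgeR adjusted p below 0.05 alone, 5 were higher and 3 lower, against 19.4% and 20.3% of all genes. Among them NANOG was at a log2 fold change of -0.46 and SOX2 at 0.41, both short of the fold limit of 0.5. After KD LIN28A was called higher and TDGF1 and DNMT3B lower. The mesendoderm markers analysed summed to 0.431 to 1.01 FPKM and the neuroectoderm markers to 0.279 to 0.660 FPKM, and the sums overlapped between groups in both experiments, although SOX1, at 0.0665 FPKM or less in every library, was called higher on crowding (log2 fold change 2.27, edgeR adjusted p = 0.00548). The summed amnion or trophoblast markers moved with the groups, from 2.87 and 2.86 FPKM in the small to 3.83 and 4.22 FPKM in the crowded libraries, and from 6.75 and 6.98 FPKM in the Ctrl to 4.25 and 3.63 FPKM in the ETV4 KD libraries. On crowding 0 of the 2 analysed were called by edgeR, DESeq2 or limma. KRT7 was higher there without overlap, against 41.2% of all genes, and GABRP overlapped. Of the 3 analysed after KD, 1 was called lower, GABRP (log2 fold change -1.33, edgeR adjusted p = 0.00864), against 7.10% of all genes, and KRT7 overlapped between the groups. The macrophage marker CD68 was at 0.370 to 0.842 FPKM and overlapped between groups in both experiments. Of the 2 fibroblast markers analysed, COL1A1 was called higher after ETV4 KD (log2 fold change 1.00) and COL1A2 was lower and just short of the call limit (-0.50, edgeR adjusted p = 0.0101). On crowding neither was called, at -0.44 and 0.02. The part of these markers in the results was not tested.

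RefSeq promoter windows of the genes, from 250 bases before to 50 bases after the annotated start on GRCh38.p14, were matched by symbol for 31 of the 36 genes. They were searched on both strands for the letters that SREBPs and their partners are known to bind. The NF-Y box, CCAAT, was in 18 of the 31 windows (58.1%), against 35.7% of the windows of all 27305 genes, and 13 of the 31 held at least 2 copies, against 11.3% of all. That background, used for every motif, was not limited to the 19472 and 19551 genes measured in the experiments. It was also not matched to the members for expression or type of gene, and the part of this in the shares was not tested. Among the 13 genes with a window that were called lower after crowding, 9 held the box and 8 held at least 2 copies. Of the other 18 genes, 9 held it. The 250 bases upstream of the start are shown for MVD, NSDHL and FDPS, called lower after crowding, and for MSMO1, just short of the call limit, as examples of arrays of NF-Y boxes. MVK, also called lower after crowding, and EBP, not called, held such arrays too and are not shown. SREBF2 is shown for the single sterol regulatory element found. CH25H is shown as an example without an NF-Y box, which it shares with every window outside the 18, some of them of genes called lower after crowding. All run from 5′ to 3′ on the gene's own strand. Capitals mark CCAAT or its reverse complement in the first 4, TCACNCCAC in SREBF2 and GGGCGG in CH25H.
MVD, chr16:88663092-88663341, minus strand: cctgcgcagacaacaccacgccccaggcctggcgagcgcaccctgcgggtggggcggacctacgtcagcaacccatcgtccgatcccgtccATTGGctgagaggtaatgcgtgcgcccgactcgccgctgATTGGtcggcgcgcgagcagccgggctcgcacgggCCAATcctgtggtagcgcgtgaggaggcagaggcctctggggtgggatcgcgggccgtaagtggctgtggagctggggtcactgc
NSDHL, chrX:152830813-152831062, plus strand: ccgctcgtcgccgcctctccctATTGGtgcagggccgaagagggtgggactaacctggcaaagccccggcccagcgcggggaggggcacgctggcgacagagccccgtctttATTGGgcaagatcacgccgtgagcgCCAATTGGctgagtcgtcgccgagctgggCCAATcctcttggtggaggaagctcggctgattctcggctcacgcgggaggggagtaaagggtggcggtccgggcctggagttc
FDPS, chr1:155308616-155308865, plus strand: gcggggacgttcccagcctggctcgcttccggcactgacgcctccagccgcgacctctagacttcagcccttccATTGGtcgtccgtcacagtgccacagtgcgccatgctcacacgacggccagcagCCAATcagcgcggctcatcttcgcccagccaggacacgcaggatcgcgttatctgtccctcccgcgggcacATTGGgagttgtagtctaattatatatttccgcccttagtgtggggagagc
MSMO1, chr4:165327419-165327668, plus strand: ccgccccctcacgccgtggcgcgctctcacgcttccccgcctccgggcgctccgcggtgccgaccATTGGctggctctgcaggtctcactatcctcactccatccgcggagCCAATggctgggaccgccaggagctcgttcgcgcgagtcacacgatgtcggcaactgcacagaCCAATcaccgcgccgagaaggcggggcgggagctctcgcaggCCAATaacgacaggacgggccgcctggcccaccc
SREBF2, chr22:41832855-41833104, plus strand: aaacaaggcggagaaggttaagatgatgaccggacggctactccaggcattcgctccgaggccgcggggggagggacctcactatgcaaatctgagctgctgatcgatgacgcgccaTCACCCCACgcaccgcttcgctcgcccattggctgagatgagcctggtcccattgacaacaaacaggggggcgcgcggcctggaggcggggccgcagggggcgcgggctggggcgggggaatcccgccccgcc
CH25H, chr10:89207318-89207567, minus strand: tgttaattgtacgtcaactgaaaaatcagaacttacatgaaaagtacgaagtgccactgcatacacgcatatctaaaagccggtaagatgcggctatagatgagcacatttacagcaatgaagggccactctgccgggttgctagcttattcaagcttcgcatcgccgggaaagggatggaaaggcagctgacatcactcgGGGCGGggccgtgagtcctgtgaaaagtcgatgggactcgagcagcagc

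The boxes of MVD, NSDHL, FDPS and MSMO1 numbered 3, 5, 3 and 4. In NSDHL a pair of them overlap in 1 palindrome, which was counted on each strand. The GC box bound by SP1, GGGCGG, was in 28 of 31 windows (90.3%) against 44.6% of all. It was in 11 of the 13 genes called lower after crowding and in 17 of the other 18. The strict sterol regulatory element, TCACNCCAC, was found in 1 of 31 windows (1.15% of all), and the E-box CACGTG in 5 of 31 (7.43% of all). The sterol regulatory element was in 0 of the 13 called genes and 1 of the other 18. For the E-box these counts were 1 and 4. The LXR element, a pair of AGGTCA half-sites spaced by any 4 bases, was in none of the 31 and in 0.0183% of all windows. The ETS letters CCGGAAG, a search added after the expression values were seen, were in 4 of 31 windows (10.7% of all). They were in 3 of the 13 called genes and in 1 of the other 18. Each gene was represented by its first listed window. For 8 genes with more than 1 listed start, accepting any of them raised the NF-Y count to 21 of 31, against 39.7% of all genes. Different motifs were counted separately even where they overlapped. A match is a description of letters, and no match says nothing about the factor.

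**Figure D1:**
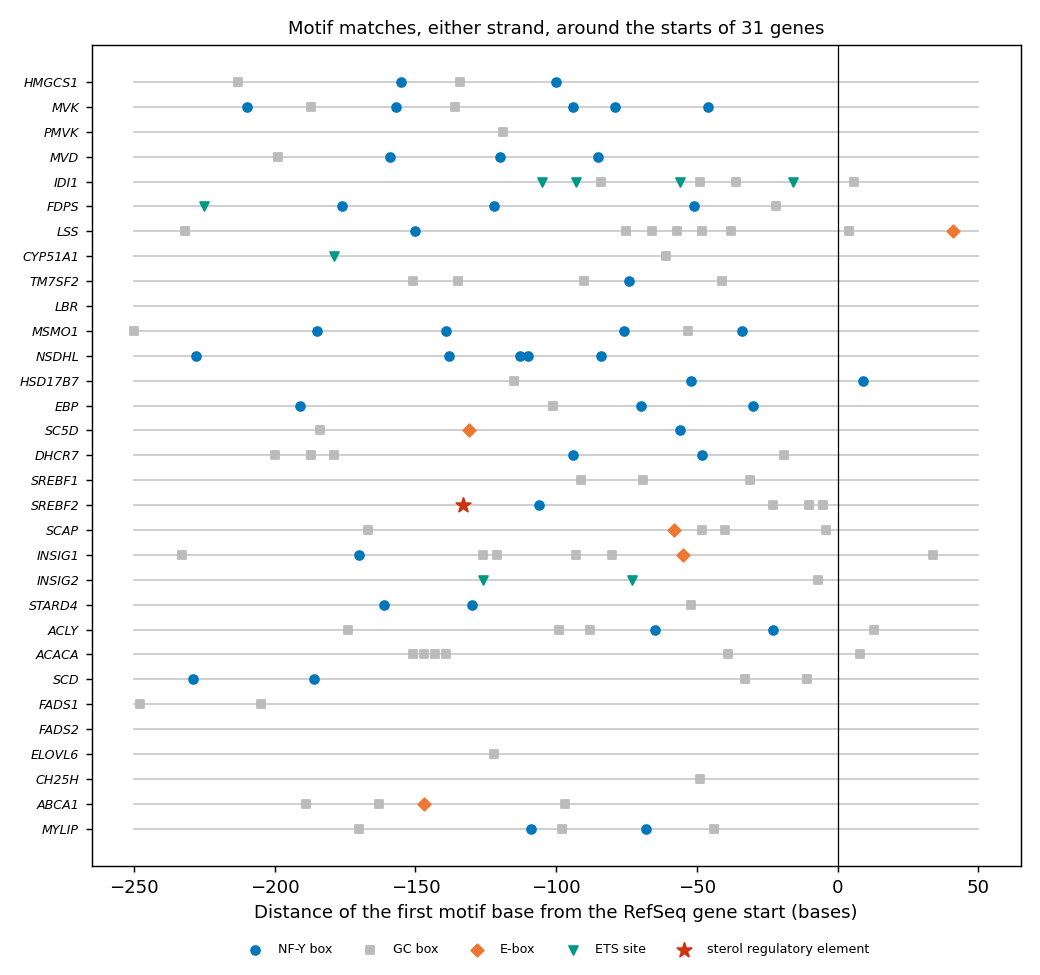
Positions of motif matches in the promoter windows of 31 genes: the horizontal axis is the distance in bases from the RefSeq start, each grey line is 1 gene, and symbols mark the first base of a match on either strand. NF-Y boxes (circles) recur upstream of the start in the synthesis genes, while the sterol regulatory element (star) appears once, in SREBF2.

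Most genes of sterol and fatty acid synthesis were lower in the crowded libraries. The quasi-likelihood test of edgeR was applied to every gene tested, its p-values were adjusted after Benjamini and Hochberg, and a gene was called with an adjusted p under 0.05 and a log2 fold change beyond 0.5 in either direction. Of the 36 genes, 17 were called lower and 0 higher, against 5.47% of all 17672 genes called lower and 10.7% called higher. DESeq2 and limma called 0 higher as well, and at an unadjusted p below 0.05 there was 1, MYLIP. Of the 26 synthesis genes 16 were called lower, their median log2 fold change was -0.57 where that of all genes was 0.00, and the range ran from -1.24 to 0.10. By adjusted p alone 24 of the 26 were lower, against 20.3% of all genes. In FPKM, both crowded libraries lay below both small libraries for the same number, 24 of 26, against 29.0% of all genes, and above them for 1, against 41.2%.

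As a share of all counts on genes, the 26 synthesis genes took 0.995% and 0.978% in the small libraries and 0.674% and 0.604% in the crowded libraries. The Wilson 95% interval of each share was no wider than 0.00274 percentage points on either side and covers counting error only. The crowded libraries were thus far below the small ones, and they also differed from each other. Crowded replicate 2 was below crowded replicate 1 in 24 of the 26 synthesis genes, with a median difference of -0.17 in log2 counts scaled to library size, while over all genes 49.4% were lower in it. Without crowded replicate 2 the median over the synthesis genes was -0.49 and 13 members were called, and without crowded replicate 1 the values were -0.68 and 21.

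**Figure D2:**
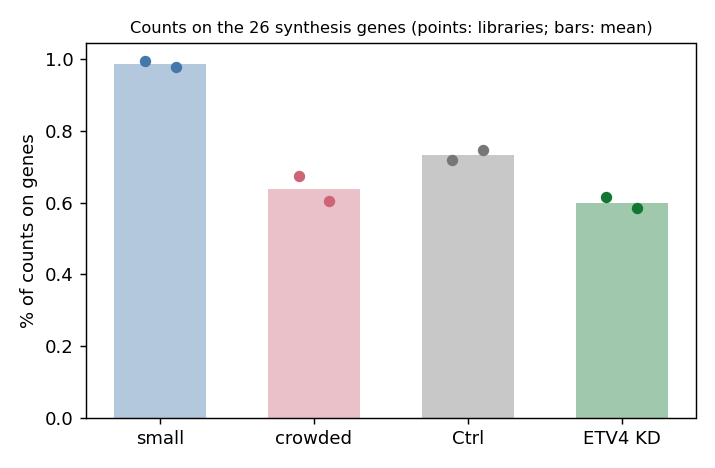
Share of all counts on genes taken by the 26 synthesis genes, in percent, for each library (points) and as the group mean (bars, axis from 0). The crowded libraries, at 0.674% and 0.604%, lie below the small ones, at 0.995% and 0.978%, and the ETV4 KD libraries, at 0.616% and 0.584%, below the Ctrl ones, at 0.719% and 0.747%.

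Among the roles with more than 1 gene, the mevalonate steps had the lowest median, -0.66, and 6 of the 7 genes were called lower. ACAT2, which joins a pair of acetyl-CoA units, was at 160.0 and 149.9 FPKM in the small libraries and 71.6 and 64.8 FPKM in the crowded libraries, 2.36-fold lower (log2 fold change -1.24 with an SE of 0.064, edgeR adjusted p = 8.04e-12). It was the lowest of the 36 genes and ranked 232 from the bottom of 17672. HMGCS1, the synthase of the next step, went from 111 and 104 to 64.9 and 53.1 FPKM (log2 fold change -0.92 with an SE of 0.091, edgeR adjusted p = 8.67e-05). MVK, mevalonate kinase, a gene at a low level, went from 5.76 and 5.48 to 4.46 and 3.504 FPKM (log2 fold change -0.55 with an SE of 0.109, edgeR adjusted p = 5.78e-04). PMVK, the kinase after it, stood apart with 9.14 and 10.1 FPKM in the small libraries and 10.3 and 11.1 FPKM in the crowded libraries (log2 fold change 0.10 with an SE of 0.106, edgeR adjusted p = 0.471). MVD, the decarboxylase that follows, went from 39.4 and 38.9 to 19.8 and 17.4 FPKM, 2.19-fold lower (log2 fold change -1.13 with an SE of 0.068, edgeR adjusted p = 7.47e-11). The kinase pair and the decarboxylase are successive steps, and they spanned nearly the whole range of the 26 synthesis genes. IDI1, the isomerase of the isoprenoid unit, went from 37.8 and 36.6 to 27.97 and 24.2 FPKM (log2 fold change -0.58 with an SE of 0.067, edgeR adjusted p = 1.82e-06). FDPS, which builds farnesyl diphosphate, went from 175 and 166 to 113 and 109 FPKM (log2 fold change -0.66 with an SE of 0.057, edgeR adjusted p = 1.79e-08). Groups did not overlap for any of the 7, and PMVK was the one with the higher crowded values. Over all genes, 29.0% were lower and 41.2% higher in the crowded libraries without overlap. MVK and IDI1 dropped inside 0.5 without crowded replicate 2, at -0.37 and -0.47. MVK also did so by a narrow margin without small replicate 1 and with library totals, and with limma on FPKM at every pseudocount, at -0.42 with a pseudocount of 1. IDI1 did so narrowly with limma at a pseudocount of 1.

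Of the 12 squalene and sterol genes 6 were called lower, with a median of -0.52, and 11 were lower by adjusted p alone. The steps at the head of the branch fell together. FDFT1, squalene synthase, went from 222 and 198 to 143 and 136 FPKM (log2 fold change -0.68 with an SE of 0.055, edgeR adjusted p = 7.65e-09). SQLE, the epoxidase and a rate-limiting step, went from 72.03 and 70.9 to 54.3 and 46.4 FPKM (log2 fold change -0.56 with an SE of 0.068, edgeR adjusted p = 3.88e-06), and it was at -0.44 without crowded replicate 2. LSS, which closes the ring to lanosterol, went from 46.9 and 45.3 to 30.6 and 25.01 FPKM (log2 fold change -0.85 with an SE of 0.088, edgeR adjusted p = 1.76e-05). CYP51A1, the lanosterol 14-demethylase, went from 51.2 and 47.5 to 29.2 and 25.3 FPKM (log2 fold change -0.92 with an SE of 0.071, edgeR adjusted p = 1.60e-08). The 14-reductase step that follows is carried by TM7SF2 and LBR, and neither was called. TM7SF2 was at 15.9 and 15.2 FPKM in the small libraries and 17.8 and 15.4 FPKM in the crowded libraries with overlapping groups (log2 fold change 0.01 with an SE of 0.076, edgeR adjusted p = 0.951). LBR, which also anchors chromatin to the nuclear lamina, was at 34.5 and 36.2 FPKM in the small libraries and 31.1 and 30.8 FPKM in the crowded libraries (log2 fold change -0.25 with an SE of 0.057, edgeR adjusted p = 0.00154).

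Removal of the 4-methyl groups is shared by MSMO1, NSDHL and HSD17B7. NSDHL was called, from 21.9 and 20.7 to 14.4 and 12.9 FPKM (log2 fold change -0.70 with an SE of 0.079, edgeR adjusted p = 7.57e-07), while MSMO1 at -0.47 and HSD17B7 at -0.48 were just short of the fold limit with adjusted p-values from edgeR of 3.83e-06 and 2.12e-04. The last steps were graded. EBP, the sterol isomerase, had 52.9 and 54.2 FPKM in the small libraries and 42.5 and 40.6 FPKM in the crowded libraries (log2 fold change -0.42). SC5D, the 5-desaturase, had 15.3 and 14.9 FPKM in the small libraries and 14.1 and 13.6 FPKM in the crowded libraries, a small difference (log2 fold change -0.18 with an SE of 0.057, edgeR adjusted p = 0.0163). DHCR7, the reductase that makes cholesterol from 7-dehydrocholesterol, was called, from 55.9 and 57.2 to 37.9 and 30.1 FPKM (log2 fold change -0.79 with an SE of 0.092, edgeR adjusted p = 6.55e-05).

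In fatty acid synthesis 4 of 7 genes were called lower and all 7 by adjusted p alone, with a median of -0.57. ACLY, which supplies cytosolic acetyl-CoA from citrate, went from 155 and 148 to 111 and 101.4 FPKM (log2 fold change -0.57 with an SE of 0.054, edgeR adjusted p = 9.12e-08). FASN, fatty acid synthase, went from 172 and 177 to 114 and 91.99 FPKM (log2 fold change -0.82 with an SE of 0.117, edgeR adjusted p = 0.00757). SCD, the 9-desaturase and the most abundant of the 36 genes per length, went from 423 and 406 to 301 and 269 FPKM (log2 fold change -0.59 with an SE of 0.051, edgeR adjusted p = 6.75e-08). FADS2, the 6-desaturase of polyunsaturated fatty acids, went from 214 and 211 to 131 and 112 FPKM (log2 fold change -0.86 with an SE of 0.064, edgeR adjusted p = 3.05e-08). Its 3 uncalled relatives lay on the same side of 0. ACACA, acetyl-CoA carboxylase, was at -0.49, the elongase ELOVL6 at -0.48, and FADS1, the 5-desaturase beside FADS2, at -0.31. Both crowded libraries were below both small ones for all 7, against 29.0% of all genes. ACLY was at -0.49 without crowded replicate 2.

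The fold limit of 0.5 cut through a continuous series. Just inside it stood MVK at -0.55, SQLE at -0.56 and ACLY at -0.57, and just outside ACACA at -0.49, ELOVL6 at -0.48, HSD17B7 at -0.48 and MSMO1 at -0.47.

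None of the 6 genes of SREBP control and sterol transport was called by edgeR, DESeq2 or limma, with a median of -0.22. SREBF2, the gene of the factor best known for sterol synthesis, was at 57.8 and 56.5 FPKM in the small libraries and 57.2 and 53.7 FPKM in the crowded libraries (log2 fold change -0.10 with an SE of 0.054, edgeR adjusted p = 0.168), and its groups overlapped. SCAP, the escort protein, was at 23.9 and 23.6 FPKM in the small libraries and 24.9 and 23.97 FPKM in the crowded libraries (log2 fold change -0.02 with an SE of 0.058, edgeR adjusted p = 0.801). SREBF1, the factor better known for fatty acid synthesis, was at 25.5 and 27.2 FPKM in the small libraries and 23.2 and 19.99 FPKM in the crowded libraries (log2 fold change -0.35 with an SE of 0.068, edgeR adjusted p = 5.32e-04). INSIG1, a retention factor and itself an SREBP target, was at 25.4 and 24.6 FPKM in the small libraries and 20.3 and 18.4 FPKM in the crowded libraries (log2 fold change -0.43 with an SE of 0.063, edgeR adjusted p = 1.67e-05). The second retention factor, INSIG2, was at 2.77 and 2.69 FPKM in the small libraries and 2.86 and 2.82 FPKM in the crowded libraries (log2 fold change -0.07 with an SE of 0.111, edgeR adjusted p = 0.671). STARD4, a carrier of sterols between membranes and also an SREBP target, was at 14.03 and 14.6 FPKM in the small libraries and 11.4 and 10.8 FPKM in the crowded libraries (log2 fold change -0.40 with an SE of 0.062, edgeR adjusted p = 3.55e-05). The 3 with an adjusted p below 0.05, all lower, were SREBF1, INSIG1 and STARD4. SCAP and INSIG2 lay so near 0 that their signs turned with the scaling or the unit.

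The 3 LXR-regulated genes did not share a direction. ABCA1, the main exporter of cholesterol to apolipoproteins, was at 6.71 and 6.66 FPKM in the small libraries and 6.01 and 4.98 FPKM in the crowded libraries (log2 fold change -0.34 with an SE of 0.075, edgeR adjusted p = 0.00177). ABCG1, an exporter to lipoprotein particles, was at 2.54 and 2.37 FPKM in the small libraries and 2.73 and 2.14 FPKM in the crowded libraries with overlapping groups (log2 fold change -0.06 with an SE of 0.136, edgeR adjusted p = 0.743). MYLIP, the ligase that marks lipoprotein receptors for degradation, was at 12.2 and 12.9 FPKM in the small libraries and 15.7 and 16.3 FPKM in the crowded libraries (log2 fold change 0.30 with an SE of 0.064, edgeR adjusted p = 9.60e-04), the one member of the 36 that was higher by adjusted p, against 19.4% of all genes. None passed the fold limit, in edgeR, DESeq2 or limma.

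CH25H lies on chromosome 10 at chr10:90965386-90967074 on the minus strand (GRCh37, GENCODE annotation) and is a gene without introns. In the crowding experiment it was near the floor of the table, with 109 and 72 counts in the small libraries and 44 and 53 in the crowded libraries, or 1.11 and 0.609 FPKM in the small libraries and 0.407 and 0.434 FPKM in the crowded libraries. It was called lower (log2 fold change -1.07 with an SE of 0.307, edgeR adjusted p = 0.00865), but the small libraries differed from each other by more than small replicate 2 differed from either crowded library. Without small replicate 1 the log2 fold change was -0.58 (edgeR adjusted p = 0.298), and with limma on FPKM the adjusted p was 0.0529 to 0.0937, so the call did not hold under either.

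**Figure D3:**
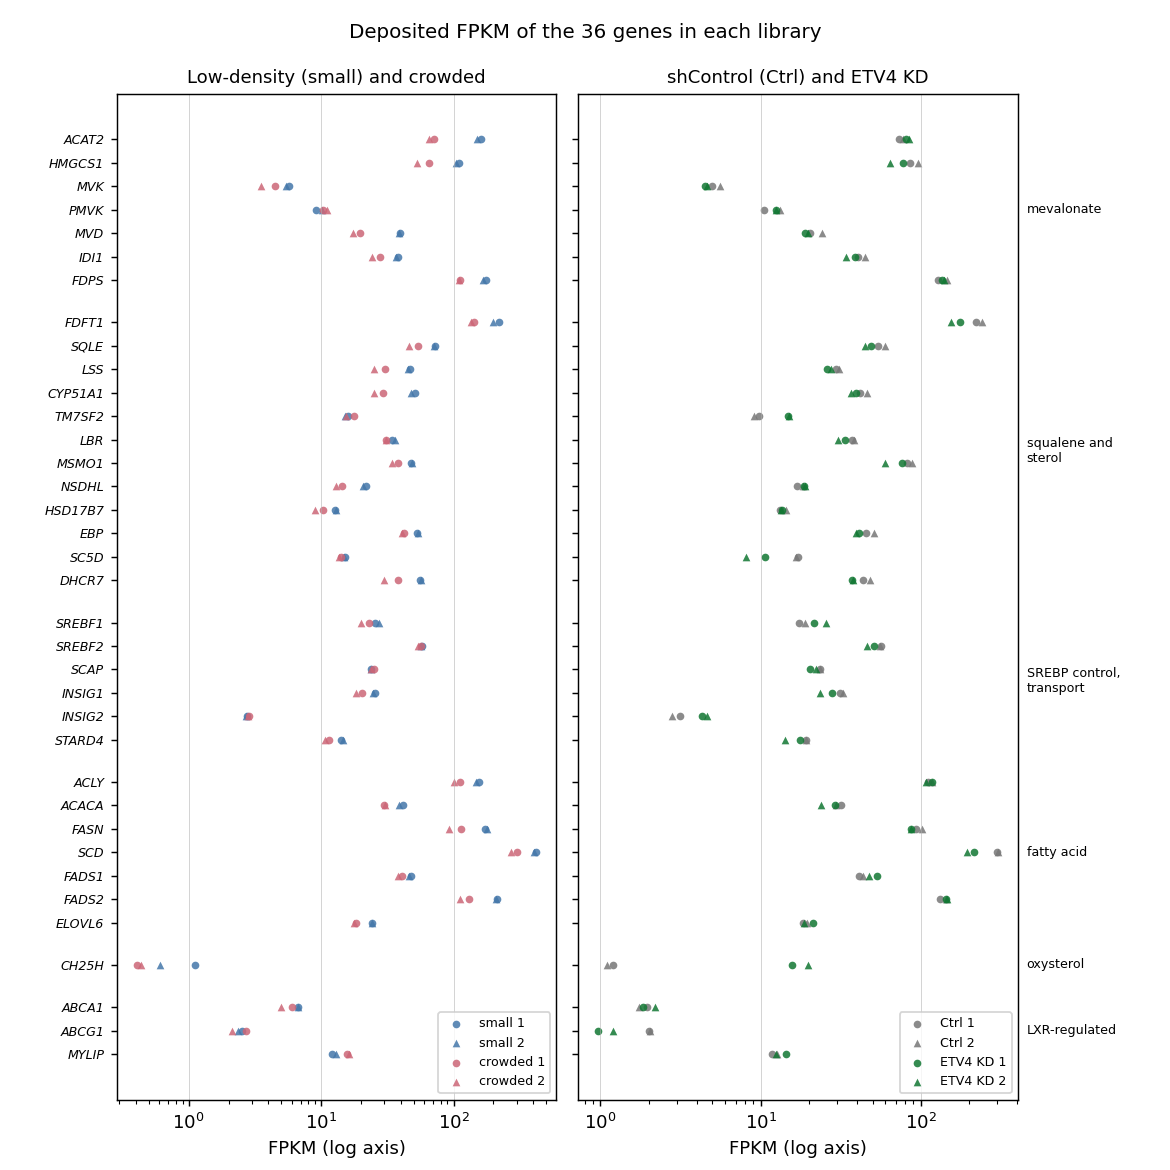
Deposited FPKM of the 36 genes on a log axis, with 1 symbol per library, for the crowding experiment (left) and the knockdown experiment (right), grouped by role. In most rows of the left panel the crowded symbols lie left of the small ones, and in the right panel CH25H is the row with the widest gap, from about 1.19 and 1.11 FPKM to 15.8 and 19.9 FPKM.

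After ETV4 KD, 4 of the 35 genes other than CH25H were called lower (FDFT1, SC5D, SCD and ABCG1) and 1 higher (TM7SF2), against 7.10% of all 17879 genes called lower and 5.88% called higher. Calls were thus about as frequent as among all genes, of which 13.0% were called. The remaining 30 were not called. The 26 synthesis genes had a median log2 fold change of -0.20 where that of all genes was 0.00, with 17 of them below 0, 3 called lower and 1 higher. By adjusted p alone 6 were lower and 2 higher, against 10.9% and 10.6% of all genes. In FPKM 16 of the 26 had both ETV4 KD libraries below both Ctrl libraries, against 31.5% of all genes, and 5 had them above, against 31.8%. These genes took 0.719% and 0.747% of the counts in the Ctrl libraries and 0.616% and 0.584% in the ETV4 KD libraries. The median was -0.10 without Ctrl replicate 2, and only 4 of the 26 were lower in that library than in Ctrl replicate 1.

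The mevalonate genes showed no call among 7 by edgeR, DESeq2 or limma, with a median of -0.20, and 2 were lower at an unadjusted p below 0.05. HMGCS1 had the largest difference, 85.8 and 95.4 FPKM in the Ctrl libraries and 77.5 and 63.8 FPKM in the ETV4 KD libraries (log2 fold change -0.35 with an SE of 0.091, edgeR adjusted p = 0.0278). ACAT2 and MVD, which fell most on crowding, were at 72.8 and 77.8 FPKM in the Ctrl libraries and 80.3 and 84.3 FPKM in the ETV4 KD libraries for ACAT2 (log2 fold change 0.13, edgeR adjusted p = 0.257) and at 20.4 and 24.1 FPKM in the Ctrl libraries and 19.01 and 19.7 FPKM in the ETV4 KD libraries for MVD (log2 fold change -0.20, edgeR adjusted p = 0.199). The others, MVK at -0.20, PMVK at 0.07, IDI1 at -0.23 and FDPS at 0.02, had adjusted p-values from 0.0873 to 0.897 in the edgeR test.

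Of the 12 squalene and sterol genes 2 were called lower and 1 higher, with a median of -0.24. By adjusted p alone 4 were lower and 1 higher, against 10.9% and 10.6% of all genes. In FPKM 9 of the 12 had both ETV4 KD libraries below both Ctrl libraries, against 31.5% of all genes. For 2 they were above, against 31.8%. SC5D, which desaturates the sterol ring just before DHCR7, went from 17.1 and 16.7 to 10.7 and 8.09 FPKM, 1.80-fold lower (log2 fold change -0.85 with an SE of 0.111, edgeR adjusted p = 0.00260), with the groups well apart. FDFT1, at the entry to the branch, went from 222 and 241 to 177 and 155 FPKM (log2 fold change -0.50 with an SE of 0.074, edgeR adjusted p = 0.00387). Its log2 fold change sat at the limit itself, and the call ended without Ctrl replicate 2 (-0.48), without ETV4 KD replicate 2 (-0.44) and with limma on FPKM (-0.48). TM7SF2, a 14-reductase, rose from 9.84 and 9.05 to 14.8 and 15.04 FPKM, 1.60-fold (log2 fold change 0.68 with an SE of 0.099, edgeR adjusted p = 0.00379). LBR, the other enzyme of that step, was at 37.3 and 38.5 FPKM in the Ctrl libraries and 33.6 and 30.6 FPKM in the ETV4 KD libraries (log2 fold change -0.23 with an SE of 0.072, edgeR adjusted p = 0.0509). The enzymes on either side of SC5D had smaller differences, -0.26 for EBP and -0.29 for DHCR7, the latter with an edgeR adjusted p of 0.0351. SQLE was at -0.28 (edgeR adjusted p = 0.0336), and LSS at -0.16, CYP51A1 at -0.21, MSMO1 at -0.33, NSDHL at 0.06 and HSD17B7 at 0.01 had edgeR adjusted p-values of 0.0503 or more.

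Among the fatty acid genes SCD alone was called, from 299 and 303 to 216 and 193 FPKM (log2 fold change -0.55 with an SE of 0.069, edgeR adjusted p = 0.00220). FADS1 was at 40.9 and 43.4 FPKM in the Ctrl libraries and 52.9 and 47.6 FPKM in the ETV4 KD libraries (log2 fold change 0.26 with an SE of 0.073, edgeR adjusted p = 0.0397). The neighbouring FADS2, whose span overlaps that of FADS1, was at 0.08. ACLY at -0.01, ACACA at -0.21, FASN at -0.16 and ELOVL6 at 0.08 gave adjusted p-values of 0.145 or more in the edgeR test.

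None of the 6 control and transport genes was called by edgeR or DESeq2, and they did not share a sign. At an unadjusted p below 0.05, 2 were higher and 3 lower. SREBF1 was at 17.4 and 18.98 FPKM in the Ctrl libraries and 21.6 and 25.7 FPKM in the ETV4 KD libraries (log2 fold change 0.41 with an SE of 0.110, edgeR adjusted p = 0.0338), just outside the fold limit, and passed it without ETV4 KD replicate 1 (0.56). INSIG2 was at 3.14 and 2.78 FPKM in the Ctrl libraries and 4.34 and 4.65 FPKM in the ETV4 KD libraries (log2 fold change 0.47 with an SE of 0.119, edgeR adjusted p = 0.0265), and its value with limma on FPKM, 0.53 with a pseudocount of 0.5, was past the limit. INSIG1 was on the other side, at 31.2 and 32.7 FPKM in the Ctrl libraries and 27.96 and 23.3 FPKM in the ETV4 KD libraries (log2 fold change -0.32 with an SE of 0.090, edgeR adjusted p = 0.0382). The 2 INSIG genes thus lay on opposite sides of 0 with adjusted p-values below 0.05 each. SREBF2 was at 56.1 and 55.7 FPKM in the Ctrl libraries and 51.2 and 46.1 FPKM in the ETV4 KD libraries (log2 fold change -0.20 with an SE of 0.071, edgeR adjusted p = 0.0822), and SCAP at 23.3 and 23.5 FPKM in the Ctrl libraries and 20.4 and 22.2 FPKM in the ETV4 KD libraries (log2 fold change -0.13 with an SE of 0.083, edgeR adjusted p = 0.308). STARD4 was at -0.28 (edgeR adjusted p = 0.0657).

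CH25H stood at 127 and 109 counts in the Ctrl libraries and at 1635 and 1976 counts in the ETV4 KD libraries, or 1.19 and 1.11 FPKM in the Ctrl libraries and 15.8 and 19.9 FPKM in the ETV4 KD libraries. That is 15.5-fold, a log2 fold change of 3.96 with an SE of 0.172, rank 6 from the top of 17879 genes. The log2 fold change was between 3.75 and 4.14 with any 1 library left out. The Ctrl level of this experiment was close to that of the first small library, at 1.11 FPKM, and above that of the second, at 0.609 FPKM. FPKM of the experiments were normalized separately.

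CH25H is known as an interferon-induced gene of macrophages and other innate immune cells, so markers of both were read beside it. Of 13 interferon-stimulated genes tested after ETV4 KD, 3 were called lower and 1 higher, against 7.10% and 5.88% of all genes. Their median log2 fold change was -0.61. ISG15, a ubiquitin-like modifier, fell from 17.7 and 18.9 to 12.4 and 11.5 FPKM (log2 fold change -0.61, SE 0.125, edgeR adjusted p = 0.0131). IRF7, a transcription factor of the interferon response, rose from 1.99 and 2.05 to 2.84 and 3.55 FPKM (log2 fold change 0.68, SE 0.186, edgeR adjusted p = 0.0341). CD68 was at 0.640 and 0.370 FPKM in the Ctrl libraries and at 0.616 and 0.842 FPKM in the ETV4 KD libraries, and the groups overlapped. Other macrophage markers were not analysed here. The part of either in the CH25H values was not tested.

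None of the LXR-regulated genes was called higher after KD, by edgeR, DESeq2 or limma, or at an unadjusted p below 0.05. ABCG1 fell from 2.03 and 2.04 to 0.973 and 1.19 FPKM, 1.86-fold (log2 fold change -0.90 with an SE of 0.182, edgeR adjusted p = 0.0125), and its groups did not overlap. ABCA1 was at 1.95 and 1.76 FPKM in the Ctrl libraries and 1.84 and 2.20 FPKM in the ETV4 KD libraries with overlapping groups (log2 fold change 0.13 with an SE of 0.131, edgeR adjusted p = 0.505). MYLIP was at 11.7 and 12.7 FPKM in the Ctrl libraries and 14.3 and 12.5 FPKM in the ETV4 KD libraries (log2 fold change 0.14 with an SE of 0.090, edgeR adjusted p = 0.309). The sign of ABCA1 turned without ETV4 KD replicate 2, at -0.04.

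**Figure D4:**
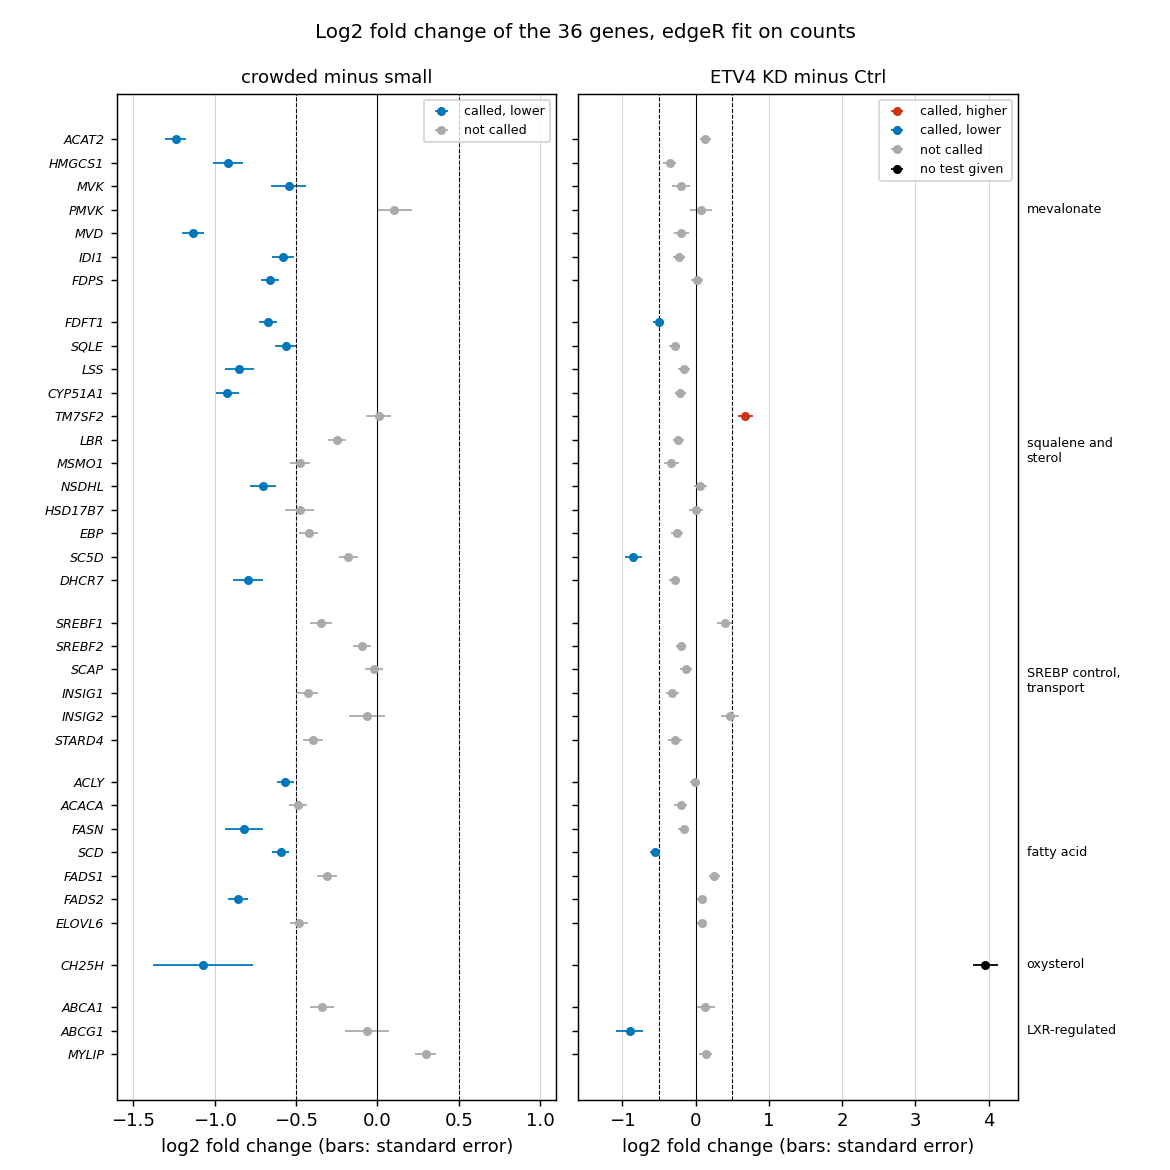
Log2 fold change of the 36 genes with its standard error (bars) in the edgeR fits, crowded minus small (left) and ETV4 KD minus Ctrl (right), with dashed lines at the fold limit of 0.5. On the left 17 genes are called lower and none higher. On the right FDFT1, SC5D, SCD and ABCG1 are called lower and TM7SF2 higher, and the uncalled genes run from HMGCS1 at -0.35 to INSIG2 at 0.47. CH25H, for which no test is given, is there at 3.96.

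Whether crowding and ETV4 KD differed in their effect was tested directly, since the experiments share no library. The contrast was the crowded-minus-small difference less the KD-minus-Ctrl difference, in 1 edgeR quasi-likelihood fit over all 8 libraries, with the same call limits. Of the 35 genes without CH25H, 16 were called lower after crowding than after KD and 2 higher, against 12.5% and 15.0% of all 17790 genes. For the 26 synthesis genes the median difference was -0.53 where that of all genes was 0.00, with 14 called lower and 1 higher. When libraries were scaled by their totals alone, 10 of the 35 were called lower and 2 higher, and over all genes the share called higher went from 2673 of 4890 calls to 3178 of 4824. The experiments also differ in everything else that separates them, such as culture format and hairpin vectors, which cannot be told apart from the conditions.

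The difference was largest for ACAT2, at -1.38 (SE 0.106, edgeR adjusted p = 3.25e-06). FADS2 followed at -0.94 (SE 0.109, edgeR adjusted p = 6.25e-05) and MVD at -0.94 (SE 0.128, edgeR adjusted p = 1.86e-04). NSDHL was at -0.77 (SE 0.127, edgeR adjusted p = 6.12e-04), CYP51A1 at -0.72 (SE 0.114, edgeR adjusted p = 4.64e-04) and LSS at -0.70 (SE 0.130, edgeR adjusted p = 0.00132). These 6 fell on crowding and were not called after KD. FDPS at -0.68 and FASN at -0.66 were called as well. For a second group no difference was called, although the gene had fallen in at least 1 of the experiments. SCD was at -0.05 (SE 0.093, edgeR adjusted p = 0.732) and had been called in both, FDFT1 at -0.18 (SE 0.093, edgeR adjusted p = 0.149), also called in both, and SQLE at -0.28 (SE 0.112, edgeR adjusted p = 0.0642). An adjusted p above the limit does not show that the responses were equal.

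Other genes called for the difference were not called on crowding. TM7SF2 was at -0.68 (SE 0.121, edgeR adjusted p = 0.00101), near 0 on crowding and called higher after KD. SREBF1 was at -0.76 (SE 0.145, edgeR adjusted p = 0.00157), with values of opposite sign in the experiments, -0.35 on crowding and 0.41 after KD. INSIG2 was at -0.54 (SE 0.148, edgeR adjusted p = 0.0116), from -0.07 on crowding and 0.47 after KD, and its call ended without Ctrl replicate 2, at -0.47. In the opposite direction, SC5D was at 0.66 (SE 0.129, edgeR adjusted p = 0.00172) and ABCG1 at 0.83 (SE 0.233, edgeR adjusted p = 0.0138), the 2 genes called higher after crowding than after KD. The ABCG1 call ended without small replicate 2 and without crowded replicate 1, where the values, 0.78 and 0.63, were still past the fold limit and the adjusted p was not below its own. HMGCS1, DHCR7, ACLY, FADS1, ELOVL6 and INSIG2 dropped out of the calls when libraries were scaled by their totals. CH25H was at -1.07 on crowding, near the floor, where its call did not hold with limma. Its value there was -0.58 without small replicate 1. After KD, the comparison it was known from, CH25H was at 3.96, given without a test.

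**Figure D5:**
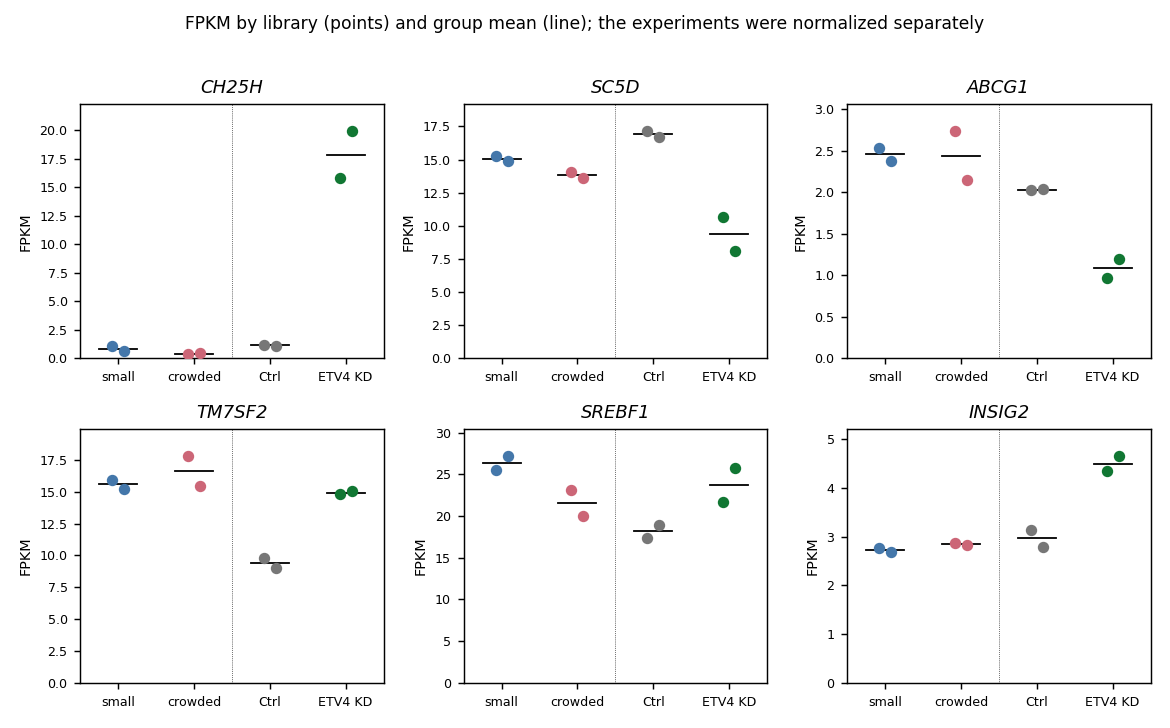
FPKM of CH25H, SC5D, ABCG1, TM7SF2, SREBF1 and INSIG2 in each of the 8 libraries (points) with the group mean (line), axes from 0, and a dotted line between the experiments, which were normalized separately. In each panel the Ctrl and ETV4 KD points do not overlap, while the means of small and crowded lie closer together than those of Ctrl and ETV4 KD. These genes are a selection and do not stand for the whole list. Over the synthesis genes the median log2 fold change was -0.57 on crowding and -0.20 after ETV4 KD. Of all genes, 31.5% were lower and 31.8% higher after ETV4 KD without overlap.

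Genes near the pathway gave a mixed picture. Of 19 other lipid synthesis genes, 4 were called lower and 1 higher on crowding, against 5.47% and 10.7% of all genes. Their median was -0.12. TMEM97, a sterol-responsive membrane protein, fell from 60.97 and 57.05 to 39.5 and 35.2 FPKM (log2 fold change -0.72, SE 0.065, edgeR adjusted p = 5.71e-08). ME1, malic enzyme and a source of NADPH, fell from 4.45 and 4.13 to 2.90 and 2.81 FPKM (log2 fold change -0.65, SE 0.099, edgeR adjusted p = 2.95e-05). ACSS2, which activates acetate, fell from 13.4 and 12.8 to 9.06 and 9.25 FPKM (log2 fold change -0.57, SE 0.070, edgeR adjusted p = 2.00e-06). After ETV4 KD 2 of the 19 were called lower and 2 higher, against 7.10% and 5.88% of all genes, with a median of -0.05. There ACSS2 fell from 11.96 and 12.5 to 6.41 and 4.01 FPKM (log2 fold change -1.23, SE 0.174, edgeR adjusted p = 0.00337), LPIN1, a phosphatidate phosphatase, fell from 6.97 and 6.69 to 4.97 and 3.24 FPKM (log2 fold change -0.74, SE 0.162, edgeR adjusted p = 0.0160), and ME1 rose from 4.89 and 5.52 to 8.12 and 7.06 FPKM (log2 fold change 0.55, SE 0.107, edgeR adjusted p = 0.0109). ME1 was thus called lower on crowding and higher after KD. With limma on FPKM, 2 of the 19 were called lower and 0 higher on crowding.

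Of 7 genes of the machinery that cleaves or degrades SREBP regulators, 0 were called on crowding by edgeR, DESeq2 or limma. By edgeR adjusted p alone 2 were lower, against 20.3% of all genes. Of 8 other LXR axis and efflux genes tested, 1 was called higher on crowding, ABCG4, at a level under 1 FPKM, against 10.7% of all genes. After KD 0 of the 8 were called by edgeR, DESeq2 or limma, with 2 lower at an unadjusted p below 0.05.

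Among 7 other oxysterol enzymes and receptors tested, 2 were called higher and 1 lower on crowding, against 10.7% and 5.47% of all genes. CYP27A1, the sterol 27-hydroxylase, rose from 0.835 and 1.01 to 1.92 and 2.46 FPKM (log2 fold change 1.19, SE 0.199, edgeR adjusted p = 7.79e-05). CYP11A1, the side-chain cleavage enzyme of steroid synthesis, rose from 0.404 and 0.546 to 1.25 and 1.66 FPKM (log2 fold change 1.53, SE 0.240, edgeR adjusted p = 3.85e-05). CYP7B1, an oxysterol 7-hydroxylase at a level under 1 FPKM, was the 1 called lower. After ETV4 KD 0 of the 7 were called by edgeR, DESeq2 or limma, with 1 higher at an unadjusted p below 0.05. CYP7B1 at 0.66 (SE 0.236, edgeR adjusted p = 0.0809) and CYP39A1 at 0.67 (SE 0.340, edgeR adjusted p = 0.192) lay past the fold limit, at levels under 1 FPKM. Of the 7, 4 were above 0 and 3 below. No other listed oxysterol enzyme was thus called beside CH25H after KD, which does not show that they were unchanged.

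Of 7 genes tested in esterification and storage, 3 were called higher and 1 lower on crowding, with a median of 0.49. Of all genes 10.7% were called higher and 5.47% lower. With limma 2 of the 7 were called higher and 1 lower. PLIN2, which coats lipid droplets, rose from 14.2 and 14.9 to 22.2 and 21.6 FPKM (log2 fold change 0.54, SE 0.069, edgeR adjusted p = 3.36e-06). DGAT2, which makes triglycerides, rose from 0.535 and 0.459 to 0.837 and 1.18 FPKM (log2 fold change 0.99, SE 0.239, edgeR adjusted p = 0.00243). LIPA, the lysosomal lipase that frees cholesterol from its esters, fell from 29.8 and 30.4 to 16.6 and 19.4 FPKM (log2 fold change -0.80, SE 0.067, edgeR adjusted p = 2.17e-08). After KD 1 of the 7 was called, PLIN2, against 13.0% of all genes called in either direction. PLIN2 rose from 16.8 and 16.4 to 26.8 and 30.3 FPKM (log2 fold change 0.79, SE 0.102, edgeR adjusted p = 0.00252). In lipoprotein uptake and endosomal sterol export 1 of 6 was called on crowding, NPC1, against 16.1% of all genes called in either direction. NPC1 moves cholesterol out of endosomes and fell from 12.7 and 12.4 to 8.55 and 8.23 FPKM (log2 fold change -0.63, SE 0.062, edgeR adjusted p = 9.45e-08). After KD 0 of the 6 were called by edgeR, DESeq2 or limma, with 1 higher and 1 lower at an unadjusted p below 0.05. Called genes outside the rule for naming, added after their values were seen, were ABCG4, CYP7B1, ERG28 (lower), ELOVL7 (higher) and NCEH1 (higher) on crowding and GPAM (higher), OAS3 (lower) and IFIH1 (lower) after KD.

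Counts of some of these genes are uncertain because other genes overlap their span and it is not stated whether reads were counted by strand. Among the genes called after crowding or KD, this concerns ACAT2 with SOD2, SOD2-OT1 and TCP1, CYP51A1 with AKAP9 and CYP51A1-AS1, MVK with MMAB, IDI1 with IDI2-AS1, FDPS with RUSC1-AS1, FADS2 with FADS1 and FEN1, and TM7SF2 with VPS51. HMGCS1, FDFT1, LSS, DHCR7 and ACLY are overlapped by annotated genes that have an identifier but no symbol. SC5D, SCD, ABCG1, CH25H, MVD, NSDHL, SQLE and FASN had no annotated protein-coding or long non-coding RNA gene across their span. Other classes of gene were not searched.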

How the data were processed

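Each experiment was deposited by the authors as 1 table with read counts per gene, not normalized, and FPKM per gene, normalized by the authors for transcript length and mapped reads within that experiment. Per the submitters' processing notes and the study's methods, reads of a stranded poly-A kit were trimmed with Trimmomatic, mapped to GRCh37 with HISAT2 2.1.0 and assembled to known transcripts with StringTie 2.1.3b. Whether counting used strand is not stated. The tables also hold fold changes and p-values of the authors and 16 further columns of per-sample values, none of which was used.

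Deposited counts were fitted whole, within each table, in edgeR 4.0.16 (R 4.3.3): filterByExpr, TMM, robust quasi-likelihood fit and test, Benjamini-Hochberg over all genes tested. Columns headed Test were taken as ETV4 KD from the labels. The thresholds are those the study states. Its methods name DESeq2, which served as an alternative (1.42.0), as did limma 3.58.1 on log2(FPKM + 0.5), with 0.1 and 1 as other pseudocounts and a minimum mean of 0.5 FPKM. On simulated counts with 200 genes changed by 1 on the log2 scale, the fits recovered 79.5% (crowding), 68% (ETV4 KD) and 59% (difference), with 9.14%, 8.72% and 10.6% of calls false. The difference was fitted on the 18679 genes in both tables before filtering.

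The members, the other gene lists and the markers were chosen with earlier results of these data known. All 36 members are named. Of the other lists at most 3 genes per comparison are named, those with the largest absolute log2 fold change among genes called with a mean of at least 1 FPKM in 1 group. Positions are GENCODE on GRCh37, and promoter sequences are RefSeq on GRCh38.p14. No promoter window was used for SQLE, FDFT1, ACAT2, FASN and ABCG1. For the genes that cleave or degrade SREBP regulators, the result after ETV4 KD is not reported here.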

Additional observations from a re-analysis of the deposited data

How the results depend on the processing

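The 36 genes were refitted under 14 other settings in each comparison. In the crowding comparison 469 of 504 combinations of gene and setting kept direction and side of the limits, 475 of 504 after ETV4 KD and 467 of 504 for the difference. The number of genes called after crowding, 2851, was 1717, 1256 and 1839 with limma on FPKM (pseudocounts 0.5 and 1, and 0.5 without the filter), 7016 by adjusted p alone, and 2407 to 3408 with 1 library left out. After ETV4 KD it was 2321, with 1325 and 1502 by limma on FPKM (pseudocount 1, and 0.5 without the filter), 3847 by adjusted p alone and 1587 to 3390 with 1 library left out. Members called on crowding and after KD, 17 and 6, were 30 and 13 by adjusted p alone and 13 to 21 and 5 to 7 with 1 library left out, where the counts after KD include CH25H, whose value there is a description only. The median of the synthesis genes ranged from -0.68 to -0.49 on crowding and from -0.23 to -0.10 after KD. With library totals in place of TMM the median of all genes shifted by 0.05 and -0.04, and the split of calls for the difference, 2673 higher and 2217 lower, became 3178 and 1646. After KD it went from 1052 higher and 1269 lower to 868 and 1456.

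Reversals were all of uncalled genes near 0. On crowding SCAP (-0.021) was at 0.025 with library totals, 0.039, 0.039 and 0.038 with limma at pseudocounts of 0.5, 0.1 and 1, and -0.065 to 0.024 with 1 library left out. INSIG2 (-0.067) was at 0.049, 0.056 and 0.043 with limma at the same pseudocounts. With 1 library left out TM7SF2 ran from -0.052 to 0.070 and ABCG1 from -0.26 to 0.11. After KD FDPS (0.018) was at -0.025 and HSD17B7 (0.0060) at -0.037 with library totals, and HSD17B7 at -0.021, -0.021 and -0.020 with limma. With 1 library left out PMVK ran from -0.095 to 0.27, FDPS from -0.058 to 0.10, HSD17B7 from -0.046 to 0.067, ACLY from -0.048 to 0.030 and ABCA1 from -0.037 to 0.28. For the difference, LBR was at 0.074 and SCD at 0.049 with library totals, and with 1 library left out PMVK ran from -0.17 to 0.20, LBR from -0.056 to 0.015, MSMO1 from -0.29 to 0.0058 and SCD from -0.13 to 0.041.

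Replicate numbers were not taken as pairing, since deviations of same-numbered libraries correlated at -0.0414 (crowding) and 0.0856 (KD) over 2 pairs each. With the replicate block 2874, 2901 and 5056 genes and 16, 6 and 19 members were called after crowding, after KD and for the difference, and FASN on crowding lost its call (edgeR adjusted p = 0.0555) at a like log2 fold change, -0.83 against -0.82. The causes of these changes were not tested. With 2 libraries per group, small changes and genes with few counts, such as CH25H in the crowding experiment, are the least certain.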

Other observations

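Genes within 250 kb of CH25H on chromosome 10 were read as neighbours, a choice made after values were seen. After ETV4 KD, FAS, a death receptor, went from 1.11 and 1.11 to 2.21 and 2.42 FPKM (log2 fold change 1.06, SE 0.152, edgeR adjusted p = 0.00357), ACTA2, smooth muscle actin, from 0.459 and 0.667 to 1.51 and 1.52 FPKM (1.48, SE 0.243, edgeR adjusted p = 0.00588) and IFIT5 from 1.31 and 1.25 to 2.04 and 1.83 FPKM (0.60, SE 0.145, edgeR adjusted p = 0.0231). LIPA, the gene next to CH25H, was at 36.8 and 35.0 FPKM in the Ctrl libraries and at 29.7 and 24.4 FPKM in the ETV4 KD libraries (-0.41), and it was called lower on crowding. IFIT1, IFIT2, IFIT3 and SLC16A12 were not called after KD, at -0.76, -0.75, -0.60 and -0.63. ACTA2 overlaps FAS and STAMBPL1 on the other strand, so its counts may be shared with theirs.

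On crowding, 3 of 11 interferon-stimulated genes tested were called higher (OAS3, IFIH1 and BST2) and 1 lower (IFIT3). Of all genes 10.7% were called higher and 5.47% lower. DESeq2 called 1 of the 11 in each direction. BST2, a membrane protein that tethers budding viruses, went from 6.68 and 7.01 to 29.5 and 31.7 FPKM (log2 fold change 2.101, SE 0.087, edgeR adjusted p = 3.60e-13). OAS3, IFIH1 and IFIT3 were below 1 FPKM in every library of that experiment.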
